A study of Mus musculus with 6 samples.

Results

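Genes that store, carry or package histones in the mouse oocyte, 10 in all, were followed by their ribosome footprints, the stretches of mRNA that survive nuclease because a ribosome covers them. They were the nucleoplasmins Npm2, Npm1 and Npm3, the oocyte linker histone H1foo (listed as H1f8 in the deposited table), and the histone chaperones Nasp, Hira, Ubn1, Cabin1, Asf1a and Asf1b. The members were chosen by name, with earlier results of these data known. All 10 members were found among the 22416 genes of the table, and all 10 entered the test, for which the average over the libraries had to reach 1 FPKM. FPKM are fragments scaled to the length of the coding sequence and to the reads of the library. Npm2 had been chosen for its own values in these libraries, the fall at maturation and the higher level after treatment, so its changes are given as a description and no test is attached to them. Counts of called members are therefore over the other 9.

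A mature oocyte carries a maternal stock of histones and of the proteins that escort them, because the sperm chromatin has to be unpacked and repackaged after fertilization while the embryo is not yet transcribing. Nucleoplasmins are acidic proteins that bind core histones and keep them from aggregating. Linker histones sit where DNA enters and leaves the nucleosome, and oocytes use their own form, H1FOO. Chaperones such as NASP and ASF1 escort histones H3 and H4, and the HIRA complex places the variant H3.3 without DNA replication. Fully grown oocytes do not transcribe, so the synthesis of these proteins during maturation depends on which stored mRNAs are translated.

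Ribo-lite, a ribosome profiling protocol for small cell numbers, had been applied to oocytes of wild-type (WT) mice, with 2 libraries in each of 3 groups. WT_FGO were fully grown oocytes at the germinal vesicle (GV) stage and WT_MII were control oocytes at metaphase II (MII). Treat_MII were treated oocytes with the same stage label. By the study's methods the mice were 4 weeks old, had a C57BL/6 background and were primed with gonadotropin (PMSG). The treatment, which the labels do not name, was BYBX, a ligand that stabilizes RNA G-quadruplexes (four-stranded folds of G-rich RNA), added to the maturation medium, and control GV and MII oocytes received its solvent DMSO. The study reports that polar body emission fell as the ligand concentration rose. By its account only a small proportion of treated oocytes reached MII, and these had abnormal spindles. Each library pooled 500 oocytes. The study's supplement calls the Ribo-lite replicates biological, while the labels do not say whether the libraries of a group came from separate animals, so the p-values measure the spread between these libraries. The study asked whether RNA G-quadruplexes hold back translation at meiotic resumption.

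The reads recovered per library were 94309 and 107251 in WT_FGO, 164972 and 230907 in WT_MII, and 331304 and 275604 in Treat_MII, so the groups differed in depth. Of all genes, 48.2% to 57.2% were at 0 in a library. The SD of the log2 difference between the libraries of a group was 1.54 in WT_FGO, 1.04 in WT_MII and 0.50 in Treat_MII (2744 genes with at least 60 reads in all). The 12 oocyte markers summed to between 19288 and 49645 FPKM, with 0 to 2 of them at 0 in a library. The 16 granulosa or cumulus markers summed to 857 and 1785 FPKM in WT_FGO, 2075 and 414 in WT_MII, and 306 and 337 in Treat_MII, with 5 to 11 of them at 0. Most of that sum came from Hsd17b1, which had 1956 FPKM in WT_MII_1 against 202 to 730 in the other 5 libraries, and from Inha, which had 747 FPKM in WT_FGO_2. The follicle-stimulating hormone receptor gene Fshr was at 0 in 5 libraries. No part of these markers in the results was tested.

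**Figure D1:**
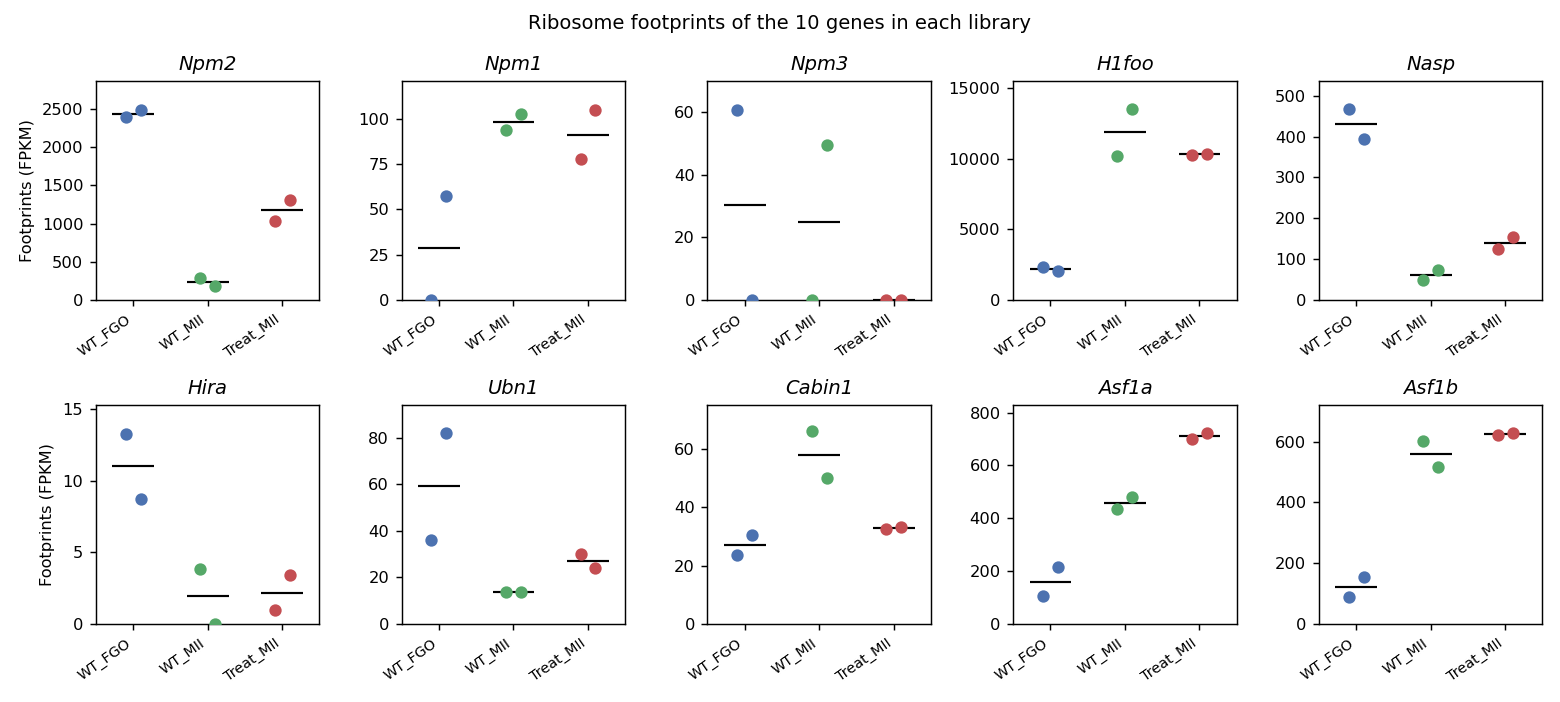
Ribosome footprints in FPKM (vertical axes, linear, each with its own range) of the 10 genes in the groups WT_FGO, WT_MII and Treat_MII. Points are the 2 libraries of a group and horizontal bars are their mean; Npm2 and Nasp were lowest in WT_MII, whereas H1foo, Asf1a and Asf1b were lowest in WT_FGO.

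NPM2, the oocyte nucleoplasmin, takes part in the decondensation of sperm chromatin and in nucleolar organization. Its gene lies on chromosome 14 (chr14:70647302-70659244, minus strand, mm10). Npm2 had 2390 and 2492 FPKM in WT_FGO, 293 and 188 in WT_MII, and 1035 and 1309 in Treat_MII. The 3 groups did not overlap, with WT_FGO highest, Treat_MII between and WT_MII lowest. The reads behind these values were 140 and 166, 30 and 27, and 213 and 224, respectively. The mean in WT_FGO (2441 ± 72.1, SD, n = 2) was 10.1 times that in WT_MII (241 ± 73.9, SD, n = 2). The mean in Treat_MII (1172 ± 193, SD, n = 2) was 4.87 times that in WT_MII and lay below that in WT_FGO by a factor of 2.08. On the log2(FPKM + 1) scale the differences were -3.37 ± 0.28 (SE) for WT_MII against WT_FGO, 2.30 ± 0.28 (SE) for Treat_MII against WT_MII, and -1.07 ± 0.28 (SE) for Treat_MII against WT_FGO. Among the genes above 0 in a library, Npm2 ranked 37 and 26 from the highest FPKM in WT_FGO, 390 and 644 in WT_MII, and 107 and 92 in Treat_MII. These are footprints of pooled oocytes, and the study's RNA-seq of the same stages was not analysed here, so fewer oocytes holding the mRNA, less mRNA per oocyte and fewer ribosomes per mRNA cannot be told apart. From that RNA-seq the study reports a fall of maternal mRNA from GV to MII. It also reports higher transcript levels in BYBX-treated than in control MII oocytes, without a value for Npm2. From Ribo-lite the study reports fewer footprints, and fewer footprints per mRNA, in MII oocytes after BYBX. By its fold threshold, more transcripts lost footprints than gained them. The footprints of Npm2, higher in Treat_MII than in WT_MII, went against that direction. Whether the oocytes of Treat_MII were mixed or delayed in stage was not tested.

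Most oocyte markers were also lower in WT_MII than in WT_FGO. Of the 12 markers, 7 were called lower and 1 (Oosp1) higher at maturation, against 3.09% and 3.67% of all genes tested. Oosp1, an oocyte-secreted protein gene, rose from 154 to 13146 FPKM (log2 6.43, limma adjusted p = 0.000604). For example, Ooep, of the subcortical maternal complex, averaged 12908 FPKM in WT_FGO and 1064 in WT_MII (log2 change -3.59, limma adjusted p = 0.000838). The zona pellucida gene Zp3 averaged 5966 and 492 FPKM (-3.53, limma adjusted p = 0.00338), and Bmp15, an oocyte-secreted growth factor, 2959 and 203 FPKM (-3.81, limma adjusted p = 0.00498). Zar1, a maternal factor gene, averaged 1119 and 241 FPKM (-2.22, limma adjusted p = 0.00705). Its mean in Treat_MII was 407 FPKM, called lower than in WT_FGO (limma adjusted p = 0.0332). In Treat_MII both libraries lay above both WT_MII libraries for 9 of the 12, against 16.2% of all genes. That share is over genes of all depths and was not matched to the depth of these markers. Their median log2 difference was 0.98, and none was called. Dppa3, a maternal factor gene, had means of 1693 FPKM in WT_MII and 1381 FPKM in Treat_MII. Their part in the values of Npm2 was not tested.

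The other nucleoplasmins had few reads. Npm1 encodes an abundant nucleolar protein of ribosome assembly (chr11:33152287-33163206, minus strand). It had 0 and 57.6 FPKM in WT_FGO, 93.5 and 102 in WT_MII, and 77.6 and 105 in Treat_MII. Both WT_FGO libraries were below all MII libraries, but they held only 0 and 6 reads, and the change at maturation (log2 3.69 ± 1.75, SE) was not called (limma adjusted p = 0.290). Npm3, a smaller relative of NPM1, lies at chr19:45747734-45749591 (minus strand). It had 60.6 and 0 FPKM in WT_FGO, 0 and 49.5 in WT_MII, and 0 in both Treat_MII libraries, from 9 reads in all. No order between the groups was detectable for Npm3 at this depth. Both genes have near-identical copies. Of the 28-base words of the coding sequence, 87.8% in Npm1 and 75.2% in Npm3 also occurred elsewhere in the genome, against 1.68% in Npm2, 6.93% in Nasp and 0% in the other 6 genes. The values of Npm1 and Npm3 are therefore uncertain, because it is not stated how the counting treated reads that match several copies.

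The linker histone gene H1foo (chr6:115944938-115950236, plus strand) had the highest footprint level of the 10 genes at MII. It had 2356 and 2013 FPKM in WT_FGO, 10223 and 13537 in WT_MII, and 10292 and 10368 in Treat_MII. Both WT_FGO libraries were below all 4 MII libraries, and the MII groups overlapped. H1foo rose at maturation, from 2185 ± 243 to 11880 ± 2343 FPKM (SD, n = 2 each), by log2 2.43 ± 0.18 (SE, limma adjusted p = 0.00226). In Treat_MII it was above WT_FGO by log2 2.25 ± 0.18 (SE, limma adjusted p = 0.00302). Between Treat_MII and WT_MII the difference was -0.19 ± 0.18 (SE, limma adjusted p = 0.963). It was the gene with rank 40 in both WT_FGO libraries, rank 2 in both WT_MII libraries and ranks 6 and 5 in Treat_MII. H1foo and Npm2 thus had near-equal FPKM in WT_FGO (2356 and 2390 in the first library, 2013 and 2492 in the second), whereas H1foo stood far above Npm2 in every MII library.

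The sum of the 10 genes was 5538 and 5446 FPKM in WT_FGO, 11779 and 15009 in WT_MII, and 12917 and 13347 in Treat_MII. Npm2 made up 43.2% and 45.8% of that sum in WT_FGO, 2.49% and 1.25% in WT_MII, and 8.02% and 9.81% in Treat_MII. H1foo made up 42.5% and 37.0%, 86.8% and 90.2%, and 79.7% and 77.7%, respectively. The footprints of these genes thus went from a near-even split between nucleoplasmin and linker histone to a majority on the linker histone.

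**Figure D2:**
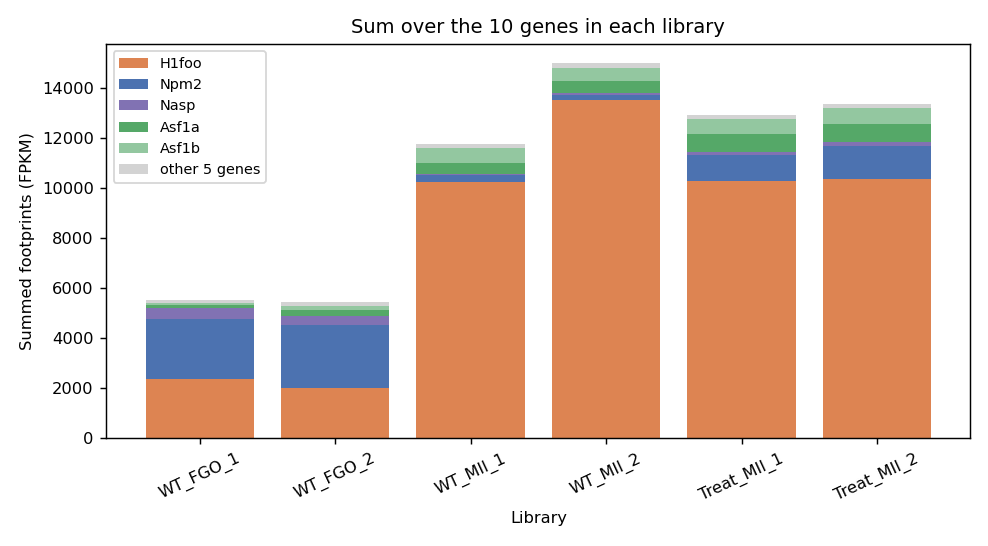
Summed footprints of the 10 genes in each library (vertical axis, FPKM, from 0), stacked by gene. H1foo made up 37.0% to 42.5% of the sum in WT_FGO and 77.7% to 90.2% in the MII libraries, and the Npm2 segment was 1.25% to 2.49% in WT_MII and 8.02% to 9.81% in Treat_MII.

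NASP holds a reserve of H3 and H4 and also binds linker histones. The gene (chr4:116601052-116627941, minus strand) had 466 and 394 FPKM in WT_FGO, 49.7 and 72.8 in WT_MII, and 125 and 153 in Treat_MII. As for Npm2, the 3 groups did not overlap and had the same order. Nasp fell at maturation, from 430 ± 51.2 to 61.2 ± 16.4 FPKM (SD, n = 2 each), by log2 -2.81 ± 0.36 (SE, limma adjusted p = 0.0116). Treat_MII was above WT_MII by log2 1.19 ± 0.36 (SE), a ratio of means of 2.27, which was not called (limma adjusted p = 0.802). The ratio of pooled read rates was 2.18 (exact 95% interval 1.62 to 2.98), an interval that covers counting error and not the spread between libraries. Among the other tested members, such intervals also excluded equal rates for Npm3, H1foo, Ubn1, Cabin1 and Asf1a, none of them called in this fit. Against WT_FGO, Treat_MII was lower by log2 -1.62 ± 0.36 (SE, limma adjusted p = 0.0738).

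The HIRA complex deposits H3.3, and UBN1 and CABIN1 are the partners of HIRA in that complex. Hira (chr16:18877037-18970309, plus strand) had 13.3 and 8.74 FPKM in WT_FGO, 3.79 and 0 in WT_MII, and 0.943 and 3.40 in Treat_MII, from 13 reads in all. Both WT_FGO libraries were above the 4 others, but the change at maturation (log2 -2.43 ± 1.17, SE) was not called (limma adjusted p = 0.298). Ubn1 (chr16:5050057-5086289, plus strand) had 36.2 and 82.2 FPKM in WT_FGO, 13.8 and 13.5 in WT_MII, and 30.05 and 23.7 in Treat_MII. The groups did not overlap, and neither the change at maturation (log2 -1.92 ± 0.61, SE, limma adjusted p = 0.129) nor that with treatment (0.92 ± 0.61, SE, limma adjusted p = 0.931) was called. Cabin1 (chr10:75646112-75764341, minus strand) went the other way. It had 23.5 and 30.4 FPKM in WT_FGO, 66.4 and 49.9998 in WT_MII, and 32.6 and 33.3 in Treat_MII. WT_MII was the highest group and Treat_MII lay just above WT_FGO, with log2 changes of 1.08 ± 0.49 (SE, limma adjusted p = 0.264) at maturation and -0.79 ± 0.49 (SE, limma adjusted p = 0.931) with treatment. No gene of the HIRA complex was called in any comparison, and none of the 3 exceeded 82.2 FPKM.

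ASF1A and ASF1B hand H3 and H4 to downstream chaperones, ASF1A mainly to the HIRA route and ASF1B mainly in dividing cells. Asf1a (chr10:53596757-53609225, plus strand) had 104 and 213 FPKM in WT_FGO, 436 and 481 in WT_MII, and 700 and 723 in Treat_MII. Asf1b (chr8:83955507-83970197, plus strand) had 87.5 and 154 FPKM in WT_FGO, 600 and 515 in WT_MII, and 623 and 629 in Treat_MII. For both genes the groups did not overlap, and Treat_MII was highest. Asf1b rose at maturation by log2 2.25 ± 0.35 (SE, limma adjusted p = 0.0196), from 15 reads in the WT_FGO libraries together. Asf1a was higher by log2 1.61 ± 0.39 (SE), which missed the threshold (limma adjusted p = 0.0659). Against WT_FGO, Treat_MII was higher by log2 2.25 ± 0.39 for Asf1a (SE, limma adjusted p = 0.0361) and 2.42 ± 0.35 for Asf1b (SE, limma adjusted p = 0.0204). With treatment, the log2 differences were 0.64 ± 0.39 for Asf1a (SE, limma adjusted p = 0.931) and 0.17 ± 0.35 for Asf1b (SE, limma adjusted p = 1).

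In mean FPKM, which is scaled to length, the order in WT_FGO was Npm2, H1foo, Nasp, Asf1a, Asf1b, Ubn1, Npm3, Npm1, Cabin1 and Hira. The libraries of Asf1a and Asf1b overlapped, although Asf1a was the higher within each library. Overlaps were also found between Ubn1 and Npm3, between Npm3 and Npm1, and between Npm1 and Cabin1. Npm2 was above H1foo in both libraries by less than the distance to any other gene. In WT_MII the order was H1foo, Asf1b, Asf1a, Npm2, Npm1, Nasp, Cabin1, Npm3, Ubn1 and Hira, with overlaps between Nasp and Cabin1 and between Npm3 and Ubn1. In Treat_MII it was H1foo, Npm2, Asf1a, Asf1b, Nasp, Npm1, Cabin1, Ubn1, Hira and Npm3. There, both libraries of each gene were above both of the next, except that Npm3 was at 0 and Hira held 1 and 3 reads.

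At maturation, then, 2 of the 9 tested members were called higher (H1foo and Asf1b) and 1 lower (Nasp). Over all 15127 genes tested, 3.67% were called higher and 3.09% lower. Both WT_MII libraries were above both WT_FGO libraries for 5 of the 9, against 15.3% of all genes, and below them for 3, against 25.8%. These shares are not matched for depth, and libraries that tie at 0 cannot lie apart. Only 2744 genes had at least 60 reads in all, whereas 8 of the 10 members did. The median log2 change over these 9 was 1.08, over the 10 members with Npm2 it was 0.47, and over all genes tested it was -0.44. Without Npm2, Hira and Npm3, of which the last 2 had groups with at most 3 reads in each library, the median of the other 7 was 1.61, or 1.35 with Npm2, against -0.58 over the 4295 genes that met the same limit. Leaving out WT_FGO replicate 2 or WT_MII replicate 2 turned the median over the 10 members to -0.04 and -0.01, respectively. With only WT_FGO and WT_MII in the fit, no gene of the table was called, these 9 included. Without Treat_MII replicate 1 or without Treat_MII replicate 2, none of the 9 was called, nor was any gene of the table. Asf1b was also not called without WT_MII replicate 1 (limma adjusted p = 0.126) or WT_MII replicate 2 (0.103). Leaving out a WT_FGO library left 1 in that group. Without WT_FGO replicate 1 the log2 changes were 0.76 for Npm1, 1.1 for Asf1a and -2.5 for Ubn1. Without WT_FGO replicate 2 they were 6.63, 2.13 and -1.34, respectively, and the WT_FGO library left then held 0 reads of Npm1.

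With treatment, none of the 9 was called, and 0% of all genes tested were (limma, 0 genes). At an unadjusted p under 0.05, 576 genes were higher and 306 lower, and limma voom on the recovered reads called 68 higher and 103 lower. Nasp alone of the 9 had an unadjusted limma p under 0.05 (0.0165). Both Treat_MII libraries lay above both WT_MII libraries for 4 of the 9 (Nasp, Ubn1, Asf1a and Asf1b), against 16.2% of all genes, and below them for Cabin1, against 15.6%. These shares, too, are not matched for depth. The median log2 difference was 0.17 over these 9, 0.29 over the 10 members with Npm2 and 0.00 over all genes. Without WT_MII replicate 2 or Treat_MII replicate 2, that of the 10 was 0.04 and 0.00. Voom called H1foo lower, by log2 -0.24 (adjusted p = 0.00436, limma voom), where the libraries of the groups overlapped.

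In Treat_MII against WT_FGO, 3 of the 9 members were called higher (H1foo, Asf1a and Asf1b) and none lower, while 2.86% of all genes were called higher and 1% lower. This comparison shares its samples with the other 2. None of the 3 was called when WT_MII replicate 1, WT_MII replicate 2, Treat_MII replicate 1 or Treat_MII replicate 2 was left out. Without WT_FGO replicate 2 the log2 change of Npm1 was 6.51, against 1 WT_FGO library that held 0 reads of it.

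**Figure D3:**
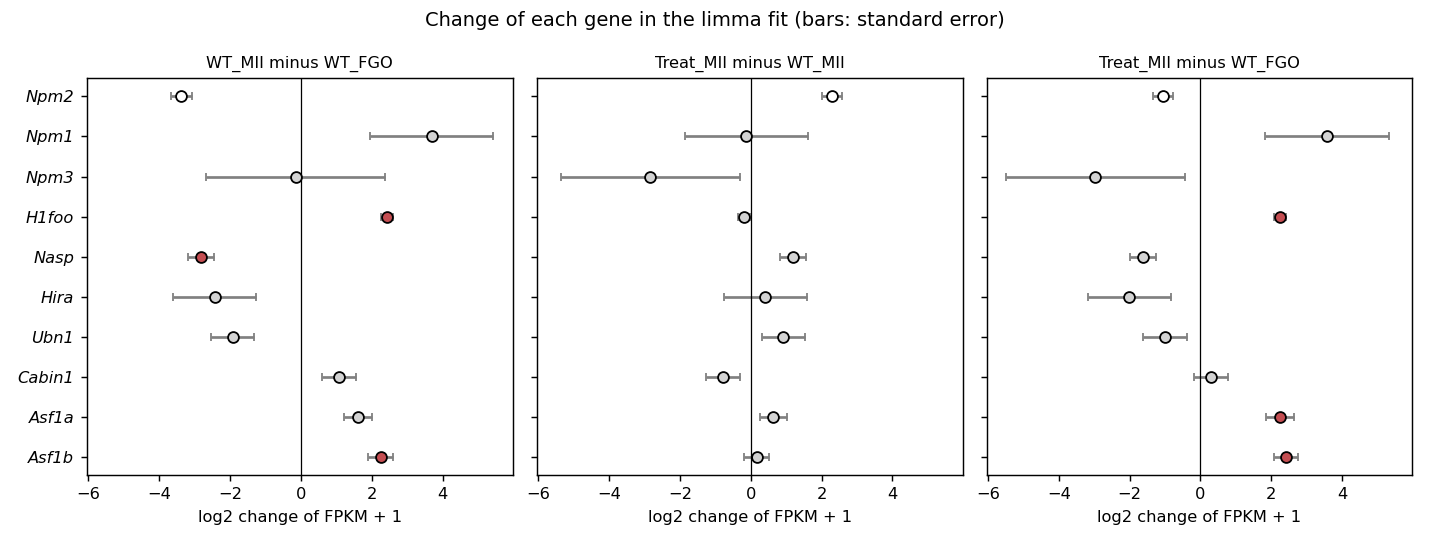
Change of each gene on the log2(FPKM + 1) scale (horizontal axes) for the 3 pairs of groups, with bars of 1 standard error from the limma fit. Red points were called (adjusted p under 0.05), gray points were not, and the white points of Npm2 carry no test; H1foo rose by 2.43 and Nasp fell by 2.81 at maturation, and no point is red for treatment.

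The 3′ end of the mRNA is shown for Npm2 and for the 4 members called in at least 1 comparison, because silent oocyte mRNAs are lengthened in their poly(A) tail, and then translated, through a cytoplasmic polyadenylation element near the polyadenylation signal. The transcript strand was searched for TTTTAT and TTTTAAT, both known forms of the element, and for the signals AATAAA and ATTAAA, in the last 100 bases of the annotated transcript (GENCODE, mm10). These motifs were chosen after the values were seen. H1foo and Asf1b held TTTTAT, and none of the other 8 genes held either form in this window. Only the longest coding transcript of each gene was searched. That of Nasp stops short of the annotated end of the gene (chr4:116601052), and the sequence between was not searched. Among 13733 tested genes with a 3′-UTR of at least 100 bases, 18.6% held one of the forms. A polyadenylation signal was present in all members but Npm1, and in 79.4% of those genes. The windows below are of 30 bases, 5′ to 3′ on the transcript strand, with the motifs in capitals. They show the elements of H1foo (chr6:115950165-115950194, plus strand) and Asf1b (chr8:83970143-83970172, plus strand), and the last signals of Asf1a (chr10:53609166-53609195, plus strand), Npm2 (chr14:70647312-70647341, minus strand) and Nasp (chr4:116601619-116601648, minus strand).
H1foo: aagcTTTTATtgtctaataagctgtcacaa
Asf1b: aaggTTTTATATTAAAagttttggttgtct
Asf1a: cccagttcatagattttaaaAATAAAacct
Npm2: gcaagctcgcctagggccacAATAAAattt
Nasp: gattctttttgtataactccAATAAAgatt
In Asf1b the element runs directly into a signal ATTAAA, which is not the last signal of this transcript. The last is AATAAA at chr8:83970177-83970182, beyond the window shown. A match is a description of letters and not of a bound site, and no link between the element and the footprints was tested.

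Because the ligand binds RNA G-quadruplexes, the longest coding transcript of each member was also searched for a G-quadruplex motif, defined as 4 or more stretches of G, each 3 bases or longer, that lie 1 to 7 bases apart. Such a motif occurred only in the 3′-UTR of Hira and of Npm3, and in no 5′-UTR or coding sequence of the 10 genes. Among 14978 tested genes, 6.98% held it in the 5′-UTR, 4.48% in the coding sequence and 10.5% in the 3′-UTR. Both motifs are shown with their G runs in capitals, for Hira at chr16:18970233-18970260 (plus strand) and for Npm3 at chr19:45747953-45747969 (minus strand).
Hira: GGGGGGtGGGGtGGGacagaGGGGaGGG
Npm3: GGGGGtGGGaGGGaGGG
Whether these motifs fold was not measured, and Hira and Npm3 had too few reads for a treatment difference to be detectable.

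**Figure D4:**
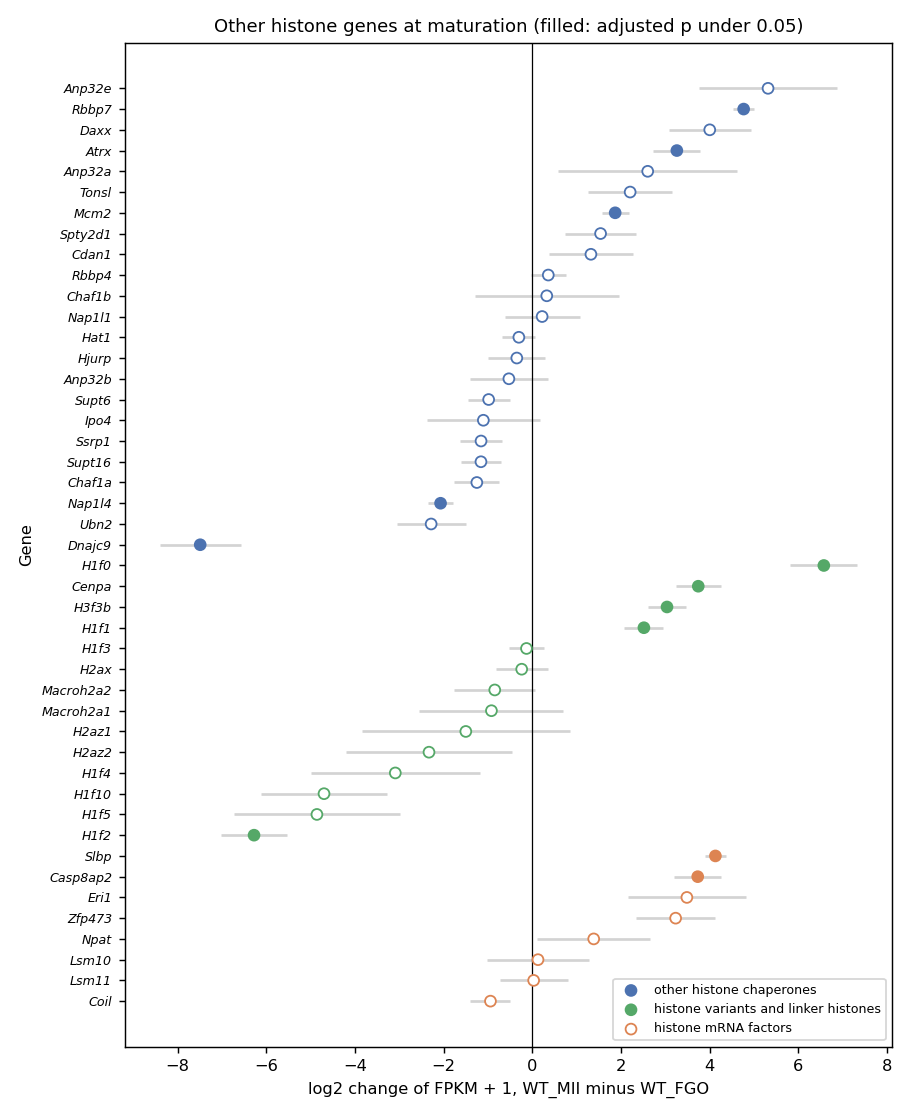
Change at maturation on the log2(FPKM + 1) scale (horizontal axis) of the tested genes of 3 other lists, with bars of 1 standard error. Filled points were called (adjusted p under 0.05), which were 5 of 23 other histone chaperones, 5 of 14 histone variants and linker histones, and 2 of 8 histone mRNA factors.

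Other histone chaperones were compared as a fixed list of 24 genes, of which 23 were tested. At maturation 3 were called higher and 2 lower, with a median log2 change of 0.22, or -0.35 over the 17 genes above the floor. Rbbp7, a histone-binding subunit of several chromatin complexes, rose from 127 to 3484 FPKM (log2 4.77, limma adjusted p = 0.000851). Mcm2, a helicase subunit that also binds H3 and H4, rose from 78.4 to 289 FPKM (1.87, limma adjusted p = 0.0232). Atrx, which places H3.3 in heterochromatin, rose from 7.58 to 79.4 FPKM (3.26, limma adjusted p = 0.0233). Nap1l4, a nucleosome assembly protein, fell from 764 to 182 FPKM (-2.07, limma adjusted p = 0.0145). Dnajc9, a chaperone that links H3 and H4 to heat shock proteins, fell from 491 and 432 FPKM to 0 and 5.57 FPKM (limma adjusted p = 0.00979), which is 36 and 36 reads against 0 and 1. In Treat_MII it had 42.7 and 32.7 FPKM, from 11 and 7 reads, above both WT_MII libraries. With treatment none of the 23 was called, and 1 was when WT_MII replicate 2 was left out. Against WT_FGO, Rbbp7, Atrx and Mcm2 were called higher and Nap1l4 lower in Treat_MII.

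Histone variants and linker histones (14 tested of 16) had 4 genes called higher and 1 lower at maturation, with a median log2 change of -0.88, or -0.18 over the 4 genes above the floor. H1f1, a somatic-type linker histone, rose from 355 to 1841 FPKM (log2 2.52, limma adjusted p = 0.0284), and H3f3b, which encodes H3.3, from 73.3 to 662 FPKM (3.04, limma adjusted p = 0.0159), with 3 and 3 reads in WT_FGO. Cenpa, the centromeric H3 variant, rose from 23.6 to 336 FPKM (limma adjusted p = 0.0138), with 1 and 2 reads in WT_FGO. H1f0, a replacement linker histone, was at 0 in WT_FGO and at 112 FPKM in WT_MII, at least 2.17-fold higher (limma adjusted p = 0.00792). H1f2, another somatic-type form, was at 77.3 FPKM in WT_FGO and at 0 in WT_MII, at least 3.15-fold lower (limma adjusted p = 0.0085). These bounds were taken against 3 reads per library. Linker histone and H3 genes have close copies, so their values are less certain than those of the members without copies.

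Of the 8 histone mRNA factors, Slbp and Casp8ap2 were called higher at maturation. Slbp, which binds the stem-loop of replication-dependent histone mRNAs, rose from 342 to 6047 FPKM (log2 4.13, limma adjusted p = 0.00117). Casp8ap2, a factor of histone gene expression, rose from 4.18 to 67.5 FPKM (3.73, limma adjusted p = 0.0154), with 2 and 3 reads in WT_FGO. No gene of the histone variants or the histone mRNA factors was called with treatment. In Treat_MII against WT_FGO, 4 variants (H1f0, Cenpa, H3f3b and H1f1) and both mRNA factors were called higher.

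The profiles most like those of Npm2 and H1foo were taken by Euclidean distance over the 6 libraries, on log2(FPKM + 1) values centred on each gene's mean, among the 6362 genes that averaged 10 FPKM or more. Nearest to Npm2 were Amn1 (distance 0.63), S100a2 (0.80), Ndufa3 (0.85), Bfsp1 (0.86) and Hspa4 (0.86). S100a2, for example, had 442 and 508 FPKM in WT_FGO, 58.3 and 41.6 in WT_MII, and 126 and 174 in Treat_MII. Nearest to H1foo were Uxs1 (0.25), Ss18 (0.33), Ssu72 (0.33), Lin28a (0.37) and Kif20a (0.39). Lin28a, an RNA-binding protein gene, had 50.7 and 44.6 FPKM in WT_FGO, 174 and 297 in WT_MII, and 188 and 208 in Treat_MII. These lists describe likeness of level over 6 libraries that share their depth differences.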

How the data were processed

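Ribo-lite libraries of mouse oocytes (3 groups, 2 libraries each) were deposited as 1 table of FPKM per gene, which the authors made; the submitters' notes name cutadapt 1.14, Bowtie2 2.2.2, STAR 2.5.3a and mm10. The counting program and annotation are not given in the sources used here, and no spike-in is stated, so values are relative to each library. Repeated names (26 of 22442 entries) were left out, and gene symbols were matched by name or, for H1foo, by RefSeq synonym. FPKM times GENCODE coding length gave whole reads (tolerance 0.02) for 97.4% of the 16545 genes above 0 somewhere, and 3 reads were taken as the floor. Intervals and floors cover counting error only. log2(FPKM + 1) was fitted with limma 3.58.1 (R 4.3.3; lmFit, eBayes with trend) over all 6 libraries, for genes that averaged 1 FPKM or more, two-sided, with Benjamini-Hochberg adjustment over all tested genes, called under 0.05. Fold changes on this scale are understated for low genes. The fit was tested on simulated data, in which changes, some of them large, were not recovered for genes of moderate level with a wide spread. An easier simulation, added after that, had larger changes of deeply covered genes with little spread, and nearly all were recovered. A change that was not called, with treatment too, therefore says little about its absence. The members and lists were chosen with earlier results of these data known. Named are all members, the called genes of each list (at most 4 by adjusted p in a comparison), and the 5 nearest profiles to Npm2 and to H1foo. Atrx, H1f1 and Zar1 met this rule only in Treat_MII against WT_FGO. Genes outside it (Dppa3, Hsd17b1, Inha and Fshr) were chosen after their values were seen. Alternatives were a pseudocount of 0.1, no filter, a mean of at least 5 FPKM, median centring, quantile normalization, the replicate number as a block, only the groups compared, no trend, voom on recovered reads and leaving out each library; the medians above the floor and without Npm2 were added after seeing the data.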

Additional observations from a re-analysis of the deposited data

How the results depend on the processing

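Centring on the median log2 ratio moved the split over all genes at maturation from 555 higher and 468 lower to 720 and 301, and in Treat_MII against WT_FGO from 433 and 152 to 600 and 67; the median member change at maturation was 0.94 with centring, 0.79 with quantile normalization and 1.35 over the members above the floor and 1.08 without Npm2 (both chosen after seeing the data), against 0.47. With the 2 groups compared alone, 0 members were called at maturation and 0 in Treat_MII against WT_FGO, as were 0 other chaperones and 0 histone variants and histone mRNA factors at maturation. Without a variance trend these 4 counts were 0, 0, 2 and 3, and voom called 5 members at maturation, 5 in Treat_MII against WT_FGO, 1 with treatment and 10 other chaperones at maturation. Leaving out each library gave 0 to 5 members called at maturation, 0 to 4 in Treat_MII against WT_FGO, 0 to 5 variants and mRNA factors (4 without WT_FGO replicate 2 or WT_MII replicate 1) and 0 to 7 other chaperones at maturation, and 0 to 1 other chaperone with treatment. Each of these maturation counts was 0 without either Treat_MII library. The median member change then ran from -0.04 to 1.28 at maturation and from 0.00 to 0.42 with treatment. Reversed signs were found for Npm3 at maturation (0.33 with centring, -3.12 to 2.83 without a library) and, without a library, for treatment changes of Npm1 (-0.33 to 0.09), H1foo (-0.39 to 0.01) and Hira (-0.71 and -0.17, up to 1.55), none of them called. Over the whole table, leaving out a WT_MII or Treat_MII library gave 17 to 398 genes higher and 0 to 387 lower with treatment. The replicate block gave 3 members called at maturation and a log2 change of 2.43 for H1foo; the replicate numbers were not taken as pairs, since deviations of same-numbered libraries correlated at 0.02 to 0.04. Depth limits Hira and Npm3, which had 13 and 9 reads in all, and the cause of the changes between settings was not tested.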
